A study of Mus musculus with 6 samples.

Results

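Polycomb proteins and the enzymes that write and oxidise DNA methylation were compared between 2 stromal cell populations of adult mouse bone marrow, through 10 genes: Ezh1, Ezh2, Eed, Suz12, Bmi1, Cbx7, Dnmt1, Dnmt3a, Tet1 and Tet2. Every probe set annotated to exactly 1 of them was taken, which gave 32 probe sets, among 34945 annotated to 1 gene each and 18193 genes on the array. The populations were mesenchymal stem cells (MSC) and neural crest stem cells (NCSC), each hybridised on 3 arrays. All 6 samples came from the bone marrow of adult female mice aged 10 weeks, of background C57BL/6 x SV129 and genotype wnt1/CRE-R26R-lacZ. In such mice a Wnt1 promoter drives Cre in the early neural crest, and Cre switches on a lacZ reporter that its descendants keep. Both populations carry these alleles, and none of the samples was treated. The cells were passaged at least 5 times in Mesencult medium and then selected as clones, so each population was cultured and clonal. The series calls the 3 samples of each population biological replicates without naming separate animals, clones or cultures, so the p-values measure only the spread between these samples.

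Polycomb repressive complex 2 (PRC2) methylates histone H3 on lysine 27 through the catalytic subunit EZH2 or its relative EZH1, together with EED and SUZ12. Polycomb repressive complex 1 (PRC1) includes BMI1, a partner of its ubiquitin ligase, and chromobox proteins such as CBX7 that bind the PRC2 mark. DNMT1 copies DNA methylation after replication, DNMT3A places it on new sites, and TET1 and TET2 oxidise methylcytosine toward its removal. In stem cells the Polycomb complexes and DNA methylation are known for holding genes of other lineages silent.

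On each array 45.2% to 45.5% of probe sets lay above log2 4, the limit used here for a measured signal. All 6 tested neural crest markers were called higher in NCSC, among them Sox10 (8.54 ± 0.25 log2, SE, adjusted p = 1.93e-06 by limma with Benjamini-Hochberg adjustment). A probe set was tested when above the limit on at least 3 of 6 arrays. Ngfr, Foxd3 and Erbb3 were under it on all MSC arrays, so they passed through NCSC alone and had to be higher. With signal above the limit asked of all 6 arrays, 2 markers were called higher. S100b was not tested. Of 7 tested mesenchymal markers, 4 were called higher in NCSC and 3 lower. Eng and Nt5e (CD73) were higher, and Pdgfra and Vcam1 were lower. Nt5e was under the limit on all MSC arrays, so it too had to be higher. Thy1 and Lepr were under the limit on all 6 arrays. Vcam1 stood 4.04 ± 0.080 lower in NCSC on the log2 scale (−4.04, adjusted p = 3.46e-07 by limma), while Eng stood 4.69 ± 0.25 higher (adjusted p = 2.59e-05 by limma). The macrophage gene Cd68 was at least 27.9-fold higher in NCSC (adjusted p = 7.3e-06 by limma). It too was under the limit on all MSC arrays and had to be higher. The summed linear intensity of 7 macrophage and blood genes was 51.0 to 77.7 in MSC and 472 to 525 in NCSC. That rise lay in Cd68 and not in the other genes. Csf1r was not called (0.54 ± 0.32, adjusted p = 0.196 by limma), and Cd14 was not tested. The defining blood markers Ptprc, Adgre1, Itgam and Cd3e were at the lowest values of the array, and all 6 endothelial markers were under the limit. The array NCSC 3 stood apart from its group: 4.93% and 4.73% of tested probe sets differed by over 2-fold between it and NCSC 1 and NCSC 2, against 0.456% between those. MSC 2 stood apart less, with 2.95% and 2.85% against 0.520% between MSC 1 and MSC 3.

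Dnmt3a, Tet1, Tet2, Cbx7 and 1 probe set of Bmi1 were higher in NCSC, Ezh2 was lower, and no probe set of Ezh1, Eed, Suz12 or Dnmt1 passed the test. Of the 32 probe sets, 23 lay above the limit on at least 3 of 6 arrays and were tested, 21 of them on all 6 arrays. Those of Cbx7 and Tet1 passed through the NCSC arrays alone and so had to be higher there. Among the tested probe sets, 9 were called higher in NCSC, 1 lower and 13 neither way, at an adjusted p under 0.05 over all 18640 tested probe sets. Of all tested probe sets, 33% were called higher and 27.2% lower, so that 60.1% were called in 1 direction or the other. The 9 of 23 members called higher lie near that background. Of these 9, 7 were above the limit on all 6 arrays. Without NCSC 3, 10 members were called higher and 4 lower, and without both MSC 2 and NCSC 3 the counts were 10 and 5. Over all probe sets the counts were 6499 and 5430 without NCSC 3, and 6738 and 6089 without both. With all arrays they were 6146 and 5065. A call of at least 2-fold was made for 6 members upward and 0 downward, against 15.1% and 13.1% of all tested. These 6 are the 4 tested Dnmt3a probe sets, annotated to 1 sequence, and those of Tet1 and Cbx7, which had to be higher. They are thus not 6 separate results to set against that share. The groups did not overlap for 10 members with NCSC higher and 2 with NCSC lower, where the backgrounds are 37.8% and 30.6%. The same 6 probe sets are among these 10. The median difference of the 23 was 0.11 on the log2 scale, and that of all tested probe sets 0.057. The interval of the difference lay within 1 log2 unit of 0 for 11 of the 23. In RNA from many cells, fewer cells of a type and less RNA per cell cannot be told apart.

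**Figure D1:**
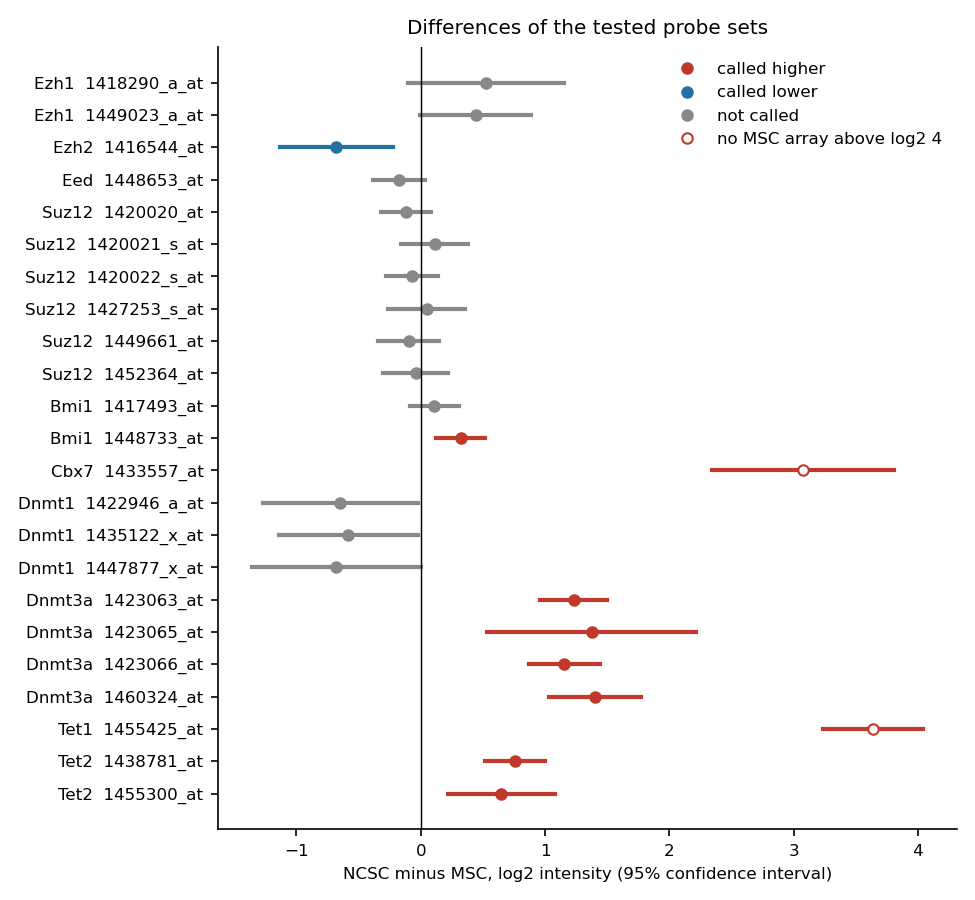
Difference in log2 intensity (NCSC minus MSC, horizontal axis) of the 23 tested probe sets of the 10 genes, with 95% confidence intervals from the limma fit over 3 arrays per group. Red points were called higher (9), the blue point lower (1, Ezh2) and grey points neither way (13). The open points of Cbx7 and Tet1 had no MSC array above log2 4, so their plotted size depends on values under the limit.

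**Figure D2:**
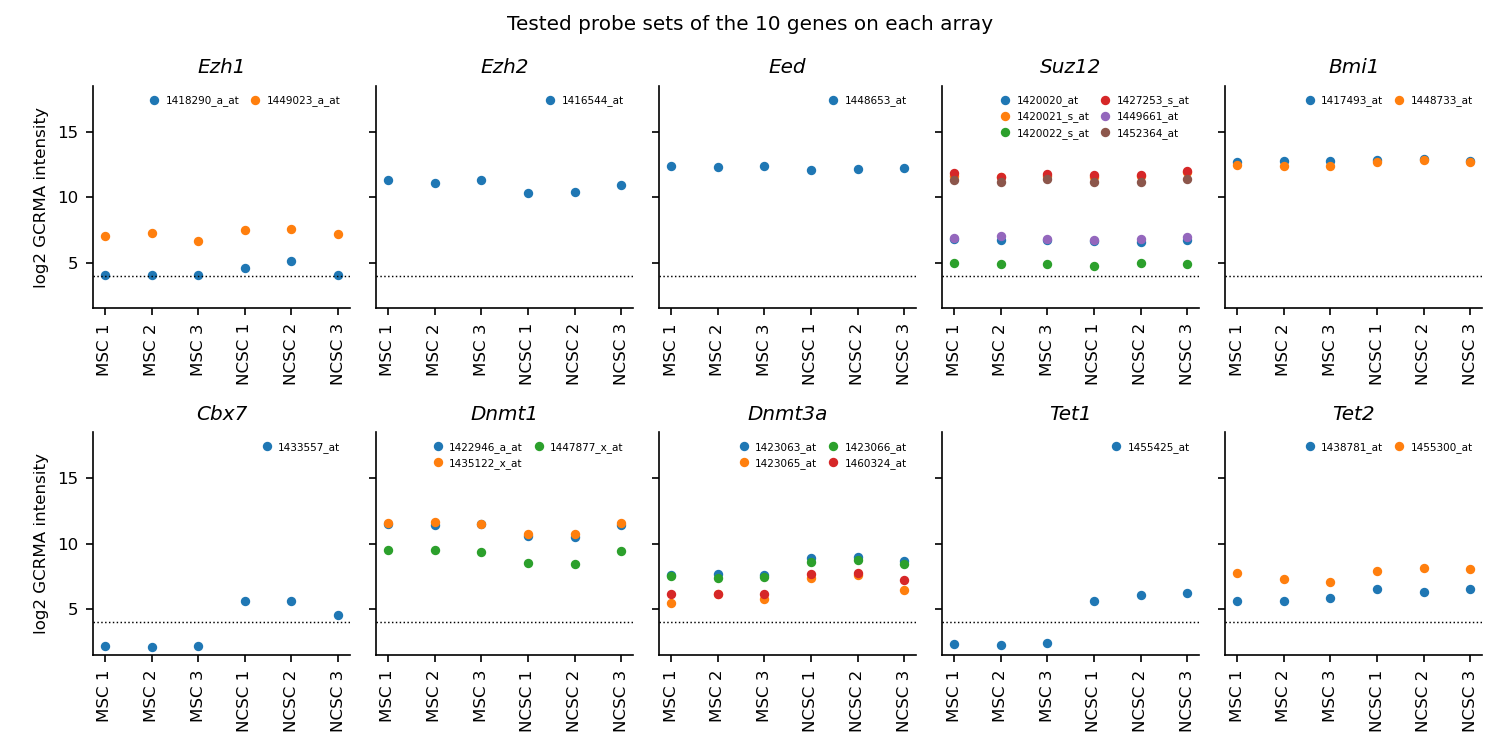
Log2 GCRMA intensity (vertical axis) of each tested probe set on each of the 6 arrays, 1 panel per gene and 1 colour per probe set. The dotted line is the limit of log2 4. Cbx7 and Tet1 lie under it on all MSC arrays and over it on all NCSC arrays, the Dnmt3a probe sets are higher on every NCSC array, and Dnmt1 on NCSC 3 lies level with MSC.

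Dnmt3a, the methyltransferase for new sites, was higher in NCSC on each of its 4 tested probe sets. All 5 of its probe sets are annotated to 1 and the same sequence, so they are repeated readings of 1 transcript region and not separate evidence. Probe set 1423063_at read 7.61, 7.67 and 7.60 (log2) on MSC 1 to 3 and 8.90, 9.00 and 8.66 on NCSC 1 to 3. All NCSC arrays were thus above all MSC arrays, by 1.23 ± 0.11 (SE, n = 3 per group), a 2.35-fold difference in intensity with adjusted p = 0.000205 by limma. Probe set 1423066_at read 7.53, 7.37 and 7.43 in MSC and 8.61, 8.78 and 8.42 in NCSC. Its difference was 1.16 ± 0.12 with no overlap of the groups (adjusted p = 0.000352 by limma). Probe set 1460324_at read 6.15, 6.17 and 6.13 in MSC and 7.70, 7.74 and 7.23 in NCSC, a difference of 1.40 ± 0.15 (adjusted p = 0.000443 by limma). The widest spread was on 1423065_at, which read 5.46, 6.14 and 5.74 in MSC and 7.40, 7.64 and 6.43 in NCSC. NCSC 3 was the lowest NCSC array on all 4, and on 1423065_at it came closest to MSC.

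The 4 Dnmt3a differences lay between 1.16 and 1.40, or 2.23-fold to 2.64-fold. The call of 1423065_at (1.38 ± 0.34, adjusted p = 0.0145 by limma) was lost without MSC 1 (0.0524), without NCSC 1 (0.0540) and with no filter on low values (0.0766), over a range of 0.000240 to 0.0766 across settings. The calls of the other 3 held under all settings that could be run. The remaining probe set, 1423064_at, read 3.98 on 5 arrays and 4.03 on NCSC 2, and was not tested.

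Tet1, which starts the oxidation of methylcytosine, was measured in NCSC and was not above the limit in MSC. On 1455425_at the MSC arrays read 2.35, 2.26 and 2.41, and the NCSC arrays 5.63, 6.07 and 6.24. The groups lay far apart, but MSC has only a bound, so that the intensity was at least 3.94-fold higher in NCSC (adjusted p = 1.32e-05 by limma). The fitted difference of 3.64 ± 0.17 uses the MSC values under the limit. With these set to the limit it was 1.98 ± 0.16 (adjusted p = 0.000144 by limma), within a range of adjusted p from 2.4e-06 to 0.000585 over all settings. A Tet1 probe set shared between transcripts, 1429448_s_at, read 2.50, 2.53 and 2.50 in MSC and 3.33, 3.72 and 4.49 in NCSC. Only NCSC 3 was above the limit there, and it was not tested. The other Tet1 probe sets, 1419896_at and 1419897_at, stayed at 2.13 on every array.

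Tet2, the relative of Tet1 known for its loss in blood cancers, was measured in both populations and was higher in NCSC. Probe set 1438781_at read 5.65, 5.65 and 5.82 in MSC and 6.53, 6.34 and 6.53 in NCSC. The groups did not overlap, with a difference of 0.76 ± 0.098 or 1.69-fold (adjusted p = 0.000966 by limma). Probe set 1455300_at read 7.74, 7.31 and 7.11 in MSC and 7.90, 8.16 and 8.06 in NCSC. Here MSC 1 came close to NCSC 1, and the difference was 0.65 ± 0.18 (adjusted p = 0.0202 by limma). That call was lost without MSC 2 (0.0602), without MSC 3 (0.0576), without NCSC 2 (0.0699), without both MSC 2 and NCSC 3 (0.101) and with no filter (0.0814), in a range of 0.000885 to 0.101.

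Start-site regions of Dnmt3a, Tet1, Tet2 and Cbx7 are shown because DNA methylation acts on CpG dinucleotides. Bmi1, called higher on 1 probe set, is not shown (23 CpG in its window). Dnmt3a has 3 windows with 46, 47 and 18 CpG, and only the stretch from the first is shown. RefSeq windows of 300 bases (GRCm38.p6, 250 before and 50 after a start) were found for all 10 genes, 14 windows in all, and held 2 to 57 CpG each, 13 of them above the median of 7 over 32851 windows. The 120 bases before the start are printed 5′ to 3′ on the gene's strand, with each CpG in capitals.
Dnmt3a, chr12:3806860-3806979, plus strand, 16 CpG: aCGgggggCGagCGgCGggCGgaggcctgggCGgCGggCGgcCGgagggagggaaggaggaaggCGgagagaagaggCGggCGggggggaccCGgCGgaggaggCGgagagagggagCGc
Tet1, chr10:62887325-62887444, minus strand, 6 CpG: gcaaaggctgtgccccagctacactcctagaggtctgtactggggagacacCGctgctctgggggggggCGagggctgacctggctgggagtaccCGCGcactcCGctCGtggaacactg
Tet2, chr3:133544391-133544510, minus strand, 25 CpG: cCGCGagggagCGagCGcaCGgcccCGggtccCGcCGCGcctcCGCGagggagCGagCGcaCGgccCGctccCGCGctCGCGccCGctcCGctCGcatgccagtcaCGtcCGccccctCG
Cbx7, chr15:79932647-79932766, minus strand, 17 CpG: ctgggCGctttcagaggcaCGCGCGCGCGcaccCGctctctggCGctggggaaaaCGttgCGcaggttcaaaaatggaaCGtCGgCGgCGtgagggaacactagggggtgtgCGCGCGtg
Methylation itself was not measured on these arrays. Of the 4 stretches, the one before Tet2 is the densest in CpG and the one before Tet1 the sparsest.

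Ezh2, the main catalytic subunit of PRC2 in dividing cells, was the only gene with a call lower in NCSC. Its 1 probe set, 1416544_at, read 11.33, 11.07 and 11.33 in MSC and 10.36, 10.38 and 10.95 in NCSC. The groups did not overlap, and NCSC 3 lay between the other NCSC arrays and MSC. The difference was −0.68 ± 0.19, or 1.60-fold lower in NCSC (adjusted p = 0.0210 by limma). It was lost without MSC 1 (0.0695), MSC 3 (0.0696), NCSC 1 (0.0709) or NCSC 2 (0.0721) and with no filter on low values (0.0856), in a range of 0.000258 to 0.0856. Without NCSC 3 it was −0.87 (0.00189).

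Dnmt1, the maintenance methyltransferase, showed low values on 2 of the 3 NCSC arrays and passed the test on none of its 3 probe sets. Probe set 1422946_a_at read 11.54, 11.41 and 11.54 in MSC and 10.59, 10.51 and 11.45 in NCSC. Probe set 1435122_x_at read 11.61, 11.66 and 11.54 in MSC and 10.78, 10.72 and 11.55 in NCSC. Probe set 1447877_x_at read 9.54, 9.55 and 9.38 in MSC and 8.55, 8.42 and 9.47 in NCSC. On each of them NCSC 1 and NCSC 2 were under every MSC array while NCSC 3 fell within the range of the MSC arrays. The differences were −0.65 ± 0.26, −0.58 ± 0.23 and −0.68 ± 0.28 in that order, with adjusted p = 0.0707, 0.0681 and 0.0784 by limma. Without NCSC 3 they were −0.95, −0.85 and −1.01, with adjusted p = 0.000569, 0.000613 and 0.000658 by limma, and all 3 were then called. With all arrays, 1422946_a_at and 1435122_x_at were also called with trend and robust variances (0.0493 and 0.0472) or with arrays centred on their median (0.0485 and 0.0486), and all 3 with array weights (0.000781 to 0.00152). The lowest and highest adjusted p over all settings were 0.000569 and 0.240. Probe sets ending in _x_at hold probes that can match other transcripts.

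Proliferation genes moved with Ezh2 and Dnmt1 across the NCSC arrays. Of 24 listed genes of DNA replication and mitosis, 23 had a probe set and all were tested: 0 were called higher and 4 lower (Ccne2, Mcm5, Cdc20 and Mcm4), against 34.3% and 28.7% of all genes by 1 probe set each. Their median difference was −0.45, and that of all tested genes 0.056. NCSC 3 was above both NCSC 1 and NCSC 2 on 23 of 23 genes, by a median of 1.08 over the mean of those arrays. Relative to the MSC mean, the median gene stood at 0.11, −0.22 and 0.11 on MSC 1 to 3 and at −0.78, −0.84 and 0.19 on NCSC 1 to 3. Ezh2 on the same scale stood at 0.086, −0.18 and 0.090 in MSC and at −0.88, −0.86 and −0.29 in NCSC. The summed linear intensity of the 23 genes was 98262 to 123172 in MSC, 61931 and 62699 on NCSC 1 and NCSC 2, and 124365 on NCSC 3. Without NCSC 3, 20 of the 23 were called lower and the median was −0.81. Over all probe sets, 5430 were called lower in that fit, against 5065 with all arrays. The part of proliferation in the values of Ezh2 and Dnmt1 was not tested.

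**Figure D3:**
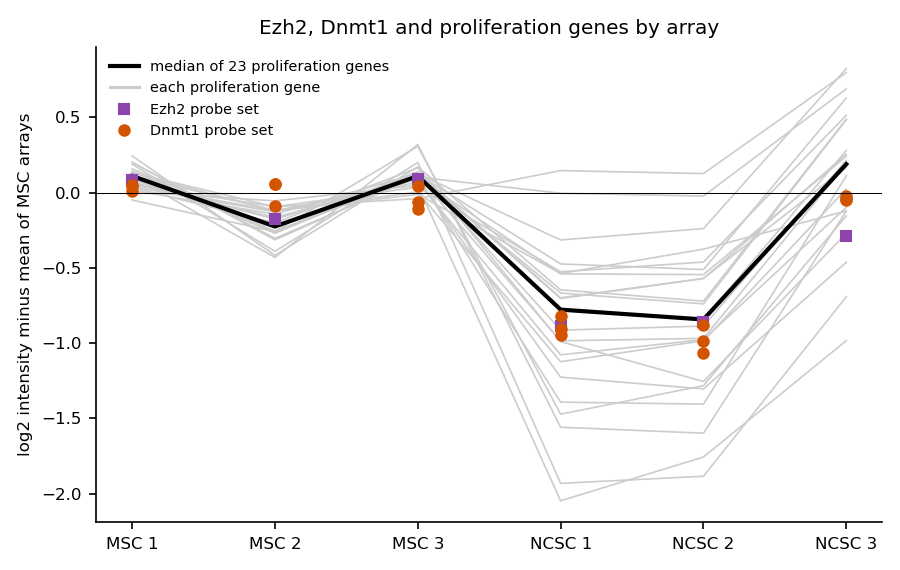
Log2 intensity minus the mean of the MSC arrays (vertical axis) on each array, for 23 proliferation genes (grey lines, 1 probe set each), their median (black line), the Ezh2 probe set (squares) and the 3 Dnmt1 probe sets (circles). On NCSC 1 and NCSC 2 the median stands at −0.78 and −0.84 and both enzymes lie near it. On NCSC 3 the median returns to 0.19, Dnmt1 to the MSC level, and Ezh2 to −0.29.

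Among the proliferation genes, Ccne2 (cyclin E2) differed by −1.60 ± 0.27 (adjusted p = 0.00288 by limma) and Mcm5, of the replicative helicase, by −1.50 ± 0.37 (adjusted p = 0.0137 by limma). Cdc20, an activator of the anaphase-promoting complex, stood at 12.82 ± 0.11 in MSC and 11.82 ± 0.46 in NCSC (SD, n = 3 each, adjusted p = 0.0113 by limma). The call of Mcm5 was lost without NCSC 2 (0.0516), in a range of 0.000111 to 0.0743. Mcm4 (−0.84 ± 0.26, adjusted p = 0.0331 by limma) lost its call without any 1 of MSC 1, MSC 2, MSC 3, NCSC 1 or NCSC 2 (0.0519 to 0.102). With no filter on low values the adjusted p of Mcm5, Cdc20 and Mcm4 rose to 0.0743, 0.0599 and 0.131. Among other tested probe sets, Mcm4 1416214_at (−0.71 ± 0.28, adjusted p = 0.0685 by limma) and Mcm5 1459658_at (−0.62 ± 0.27, adjusted p = 0.0939 by limma) were not called. Mcm5 1415945_at was called lower (−2.02 ± 0.55, adjusted p = 0.0193 by limma), as were those of Cdc20. Rrm2 was not called on its brightest probe set (−0.69 ± 0.31, adjusted p = 0.0937 by limma). It was called lower on 1416120_at (−1.06 ± 0.28, adjusted p = 0.0168 by limma) and 1448226_at (−1.05 ± 0.32, adjusted p = 0.0309 by limma). The mitotic kinase Aurkb was not called on the probe set described (−1.09 ± 0.44, adjusted p = 0.0722 by limma) but was on 1424128_x_at (−1.26 ± 0.42, adjusted p = 0.0393 by limma). Not called either were Bub1 (−0.12 ± 0.33) and Ccna2 (0.090 ± 0.32). Without NCSC 3 Aurkb stood at −1.58 and was called (0.00329), Bub1 stood at −0.49 and was called (0.0269), and Ccna2 stood at −0.28 and was not (0.170).

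Ezh2 and Dnmt1 are known targets of E2F factors, which switch on genes for S phase. The start-site windows of all 10 genes were searched for 4 E2F octamers: TTTGGCGC, TTTCCCGC, TTTGCCGC and TTTCGCGC, on both strands. These letters occur in 2.26% of all 32851 windows. They were found in 3 of the 14 windows of the 10 genes, 1 each of Ezh2 (1 match), Suz12 (1 match) and Dnmt1 (2 matches). Each octamer holds a CpG, and these 3 windows hold 31, 41 and 33 CpG against a median of 7. The share over all windows is therefore no matched background. Each match is printed in its 30 bases, 5′ to 3′ on the gene's strand, with the octamer or its reverse complement in capitals.
Ezh2, chr6:47595009-47595038, minus strand: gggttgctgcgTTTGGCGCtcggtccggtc
Dnmt1, chr9:20952824-20952853, minus strand: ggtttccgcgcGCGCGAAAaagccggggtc
Dnmt1, chr9:20952574-20952603, minus strand: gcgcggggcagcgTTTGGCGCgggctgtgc
Suz12, chr11:79992876-79992905, plus strand: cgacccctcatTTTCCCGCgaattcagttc
A match is a run of letters and no measure of binding. In the fit of all 6 arrays Ezh2 was called lower in NCSC, and Dnmt1 and Suz12 were not called. The part of E2F factors in the values of these genes was not tested.

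Suz12, the subunit that holds PRC2 together, gave 6 tested probe sets and no call. Some of these probe sets share an annotated sequence, so they are not 6 separate lines of evidence. Their differences ran from −0.12 to 0.11 on the log2 scale, and their 95% intervals lay between −0.34 and 0.38. The largest, 1420020_at, read 6.79, 6.75 and 6.73 in MSC and 6.63, 6.56 and 6.73 in NCSC, a difference of −0.12 ± 0.082 (adjusted p = 0.256 by limma). On 1420021_s_at the MSC arrays read 11.62, 11.53 and 11.64 and the NCSC arrays 11.58, 11.65 and 11.90. NCSC 3 was the highest array there and on 1427253_s_at and 1452364_at. The groups overlapped on all 6 probe sets.

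Eed, which binds the methylated histone tail, was slightly lower in NCSC on 1448653_at without passing the test in the fit of all 6 arrays. The MSC arrays read 12.39, 12.29 and 12.35 and the NCSC arrays 12.08, 12.18 and 12.25. The groups did not overlap, but the difference was −0.18 ± 0.086, with an interval of −0.38 to 0.034 (adjusted p = 0.123 by limma). It was called lower with array weights (−0.24, 0.0148) and without both MSC 2 and NCSC 3 (−0.25, 0.0381), in a range of 0.0148 to 0.300. Its other probe set, 1453830_at, stayed at 2.13 on every array.

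Ezh1, the catalytic subunit known from cells that divide little, gave values in the direction opposite to Ezh2 and no call. Probe set 1449023_a_at read 7.02, 7.26 and 6.63 in MSC and 7.47, 7.56 and 7.22 in NCSC, where NCSC 3 lay just under MSC 2. The difference was 0.44 ± 0.18 (adjusted p = 0.0787 by limma), and without MSC 2 it was 0.59 and called (0.0361). Probe set 1418290_a_at, annotated to the same sequence, lay near the limit, at 4.06, 4.08 and 4.06 in MSC and at 4.56, 5.15 and 4.08 in NCSC. MSC 1 and MSC 3 were identical there, so the MSC values may be a floor of this probe set and no measured level. NCSC 3 equalled MSC 2 there, and the difference of 0.53 ± 0.26 (adjusted p = 0.125 by limma) became 0.78 without it, with adjusted p = 0.0159 by limma. The ranges over settings were 0.00802 to 0.220 for the first and 0.0124 to 0.328 for the second. The other Ezh1 probe sets, 1429629_at and 1429630_at, stayed at the lowest value of the arrays, 2.12.

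Cbx7, a chromobox reader of the PRC2 mark, was measured in NCSC and was not above the limit in MSC. Probe set 1433557_at read 2.21, 2.12 and 2.21 in MSC and 5.60, 5.63 and 4.54 in NCSC. NCSC 3 was the lowest NCSC array by 1.08 against the mean of the others, yet was above the limit. The intensity was at least 2.39-fold higher in NCSC (adjusted p = 0.000296 by limma). The fitted difference of 3.08 ± 0.30 uses MSC values under the limit. With these set to the limit it was 1.26 ± 0.30 (adjusted p = 0.0118 by limma), in a range of 4.1e-06 to 0.0118 over settings. Its other probe sets, 1420039_s_at and 1449713_at, stayed at 2.12 and 2.13.

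Bmi1, the PRC1 subunit known for repressing the Cdkn2a locus in stem cells, differed little. Probe set 1448733_at read 12.44, 12.42 and 12.39 in MSC and 12.69, 12.83 and 12.69 in NCSC, a difference of 0.32 ± 0.081 or 1.25-fold (adjusted p = 0.0143 by limma). That call was lost without MSC 3 (0.0555), in a range of 0.00374 to 0.0555. Probe set 1417493_at, annotated to the same sequence, read 12.70, 12.79 and 12.77 in MSC and 12.87, 12.93 and 12.79 in NCSC. NCSC 3 lay just above MSC 2, and the difference was 0.11 ± 0.081 (adjusted p = 0.285 by limma).

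The partners of these proteins were described by 1 probe set per gene, against 34.3% of genes called higher and 28.7% called lower. Of 8 PRC2 partners, 6 were tested: 1 was called higher, 2 lower and 3 neither way, with a median difference of −0.0032. Mtf2, a subunit that brings PRC2 to CpG islands, was higher by 0.67 ± 0.11 (adjusted p = 0.00256 by limma), and 1 of its other 3 tested probe sets was not called. Aebp2, a cofactor of PRC2, fell by 0.58 ± 0.10 in NCSC (−0.58, adjusted p = 0.00372 by limma), also on its other 3 tested probe sets. The histone-binding protein Rbbp7 differed by −0.29 ± 0.096 (adjusted p = 0.0402 by limma). It lost its call without any 1 of MSC 1, MSC 2, MSC 3, NCSC 1 or NCSC 2 (0.0783 to 0.103). Phf1 (0.48 ± 0.18, adjusted p = 0.0613 by limma), Rbbp4 (−0.14 ± 0.081) and Jarid2 (0.13 ± 0.13) were not called. Phf1 was called without MSC 2 (0.62, 0.0292). The probe sets of Rbbp4 disagree: 1456260_at was called lower (−0.76 ± 0.20, adjusted p = 0.0171 by limma), as was the mean of its kept probe sets (−0.32, 0.0233) and the first probe set with array weights (0.0289).

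Of 20 other PRC1 subunits, 18 had a probe set and 17 were tested: 4 were called higher, 4 lower and 9 neither way, with a median of −0.033. Scmh1 (−1.08 ± 0.081, adjusted p = 0.000106 by limma) and Phc2 (−0.90 ± 0.096, adjusted p = 0.000425 by limma) were lower in NCSC. Phc3, a relative of Phc2, was higher (0.52 ± 0.088, adjusted p = 0.0029 by limma), and both encode polyhomeotic subunits. Among chromobox genes, which include Cbx7, Cbx8 (−0.67 ± 0.17, adjusted p = 0.0166 by limma) and Cbx2 (−0.46 ± 0.14, adjusted p = 0.0320 by limma) were lower. Cbx8 lost its call without MSC 3 (0.0548). Cbx2 lost it without any 1 of MSC 1, MSC 3, NCSC 1 or NCSC 2 (0.0670 to 0.101). Yaf2 (0.51 ± 0.075), Pcgf3 (0.38 ± 0.092, not on its other tested probe set, 0.058 ± 0.11) and Pcgf1 (0.42 ± 0.13) were called higher, the last not without any 1 of MSC 2, MSC 3, NCSC 1 or NCSC 2 (0.0750 to 0.0891). The ligase gene Rnf2 (0.036 ± 0.089) and Pcgf5 (−0.033 ± 0.080) had the smallest differences of the list by the probe sets described. Another tested Pcgf5 probe set, 1453636_at, was called lower (−0.50 ± 0.14, adjusted p = 0.0231 by limma).

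Of 16 genes that oppose Polycomb, 15 were tested: 5 were called higher, 2 lower and 8 neither way, with a median of 0.17. Kdm6a, a demethylase that removes the PRC2 mark, was higher by 0.81 ± 0.10 (adjusted p = 0.000866 by limma) and was called higher on all 3 tested probe sets. Asxl2, a partner of the deubiquitinase that reverses the PRC1 mark, was higher by 1.22 ± 0.096 (adjusted p = 0.000125 by limma). The methyltransferase gene Kmt2c was higher by 0.87 ± 0.075 on the probe set described and was called on its other 3 (adjusted p = 0.000185 by limma). Ash2l, a subunit shared by these methyltransferases, differed by −1.24 ± 0.11 (adjusted p = 0.000172 by limma). Its other tested probe set was not called (0.11), so its probe sets disagree. Men1 was called higher (0.60 ± 0.090) on 1 of 3 tested probe sets. Dpy30 (−0.43 ± 0.12, adjusted p = 0.0198 by limma) lost its call without MSC 1 (0.0682) or MSC 3 (0.0614). Asxl1 (0.25 ± 0.075, adjusted p = 0.0283 by limma) lost it without any 1 of MSC 1, MSC 2, MSC 3, NCSC 1 or NCSC 2 (0.0512 to 0.0869). Bap1 (0.044 ± 0.13) and Paxip1 (0.016 ± 0.14) had the smallest differences of the list.

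Of 24 partners in DNA methylation, 22 had a probe set and 18 were tested: 10 were called higher, 2 lower and 6 neither way, with a median of 0.38. Cxxc5, a CpG-binding protein, rose by 4.08 ± 0.11 (adjusted p = 1.52e-06 by limma) from 7.37 ± 0.17 to 11.45 ± 0.090 (SD, n = 3 each). Gadd45a, a stress gene linked to demethylation, rose by 1.52 ± 0.12 (adjusted p = 0.000141 by limma). The repair glycosylase gene Mbd4 rose by 1.35 ± 0.16 (adjusted p = 0.000628 by limma). Idh1, whose product makes the TET cofactor 2-oxoglutarate, rose by 1.33 ± 0.12 (adjusted p = 0.000233 by limma). Mbd3 differed by −0.53 ± 0.079 (adjusted p = 0.00182 by limma). Pcna (0.10 ± 0.16) and Ogt (0.057 ± 0.13) had the smallest differences. The other de novo enzyme, Dnmt3b, was not called (−0.58 ± 0.30, adjusted p = 0.139 by limma) except with array weights (0.0267) or without both MSC 2 and NCSC 3 (0.0135), and Dnmt3l and Tet3 were not tested.

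**Figure D4:**
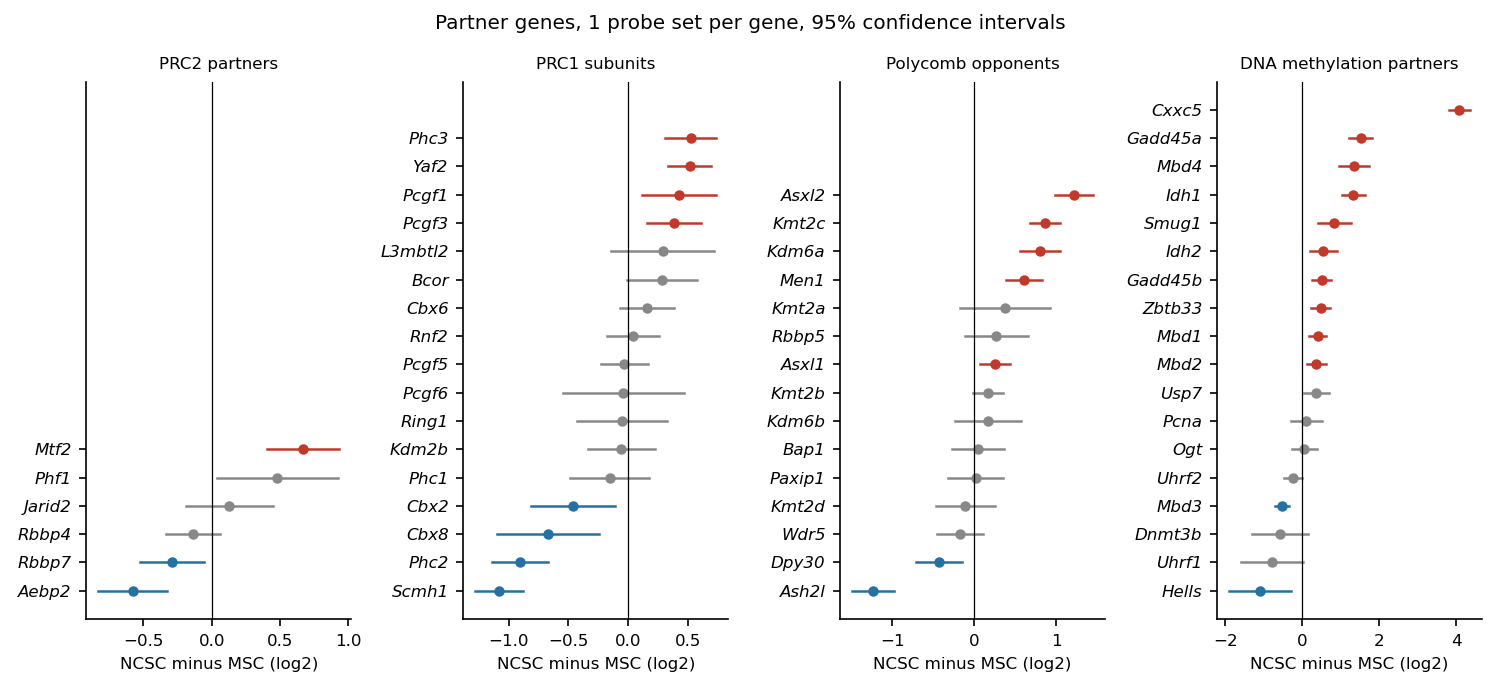
Difference in log2 intensity (NCSC minus MSC, horizontal axes, which differ between panels) for the tested partner genes in 4 lists, by the probe set with the highest mean, with 95% confidence intervals from the limma fit over 3 arrays per group. Red points were called higher, blue points lower and grey points neither way. The DNA methylation panel holds 10 red and 2 blue points of 18, the PRC1 panel 4 and 4 of 17.

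Uhrf1 and Hells, which work with DNMT1 at replicated DNA, had clearly lower values on NCSC 1 and NCSC 2. On NCSC 3, Uhrf1 read 12.08, within the MSC values of 11.78 to 12.44. Hells read 12.11 there, just under MSC 2 at 12.17. Uhrf1 differed by −0.79 ± 0.33 (adjusted p = 0.0810 by limma), and without NCSC 3 by −1.13, when it was called (0.00844), in a range of 0.000503 to 0.250. Hells differed by −1.09 ± 0.33 (adjusted p = 0.0296 by limma), and without NCSC 3 by −1.47 (0.00114), in a range of 0.000265 to 0.125. It lost its call without any 1 of MSC 1, MSC 3, NCSC 1 or NCSC 2 (0.0864 to 0.0959), and its other tested probe sets were not called. The part of proliferation in these values was not tested.

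Tet1 and Cbx7 had the largest fitted differences among the 10 genes, against MSC values under the limit. With those values set to the limit, Cbx7 (1.26) lay under Dnmt3a 1460324_at (1.40). The genes with the most similar pattern to Tet1 and Cbx7 over the 6 arrays were sought among 16995 probe sets above the limit on all arrays. For Tet1 these were Cgref1, Tmem9 and Pacc1, the first with a Pearson correlation of 0.999, and 324 probe sets lay above 0.99. For Cbx7 they were Snx15, Ehd3 and Srp9, with 488 above 0.99. Over 3 arrays per group such a correlation mostly restates the gap between the populations, with MSC values under the limit.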

How the data were processed

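The deposited values are GCRMA intensities on a linear scale, made by the authors from Affymetrix arrays; GCRMA is named per the submitters' processing notes and its version is not given in the sources used here. GCRMA models background per probe and brings very dim probe sets to a floor, so a fold against such a group depends on that floor. The lowest value was log2 2.12. Some probe sets gave identical values on several arrays further up, such as Dnmt3a 1423064_at at 3.98, so floors may differ between probe sets. Intensities were taken to log2, and probe sets annotated to 1 gene and above log2 4 on at least 3 of 6 arrays (18640 probe sets, 10501 genes) entered 1 two-sided limma fit (version 3.58.1, R 4.3.3, moderated variances, Benjamini-Hochberg over all). Calls are at an adjusted p under 0.05. Differences are NCSC minus MSC. Where a group's mean was under the limit, a fold is a bound: the brighter group's mean against the dim arrays with values under 4 set to 4. An exact permutation test of 3 against 3 arrays cannot go below 0.1 (two-sided), so none was used. The number of arrays limits the precision.

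Of 45101 probe sets, 932 named several genes and 9224 none here; these were not used. The fit was tested on simulated data. The members and lists were chosen with earlier results of these data known. Named genes are, per list, 4 genes of largest and 2 of smallest tested difference (each gene read from its brightest tested probe set), and the 3 genes most correlated with each of the 2 members of largest fitted difference, values under the limit included. Yaf2, Cbx2, Pcgf1, Pcgf3, Men1, Dpy30, Asxl1, Hells, Mbd3, Uhrf1, Dnmt3b, Mcm4, Rrm2 and Pdgfrb were added after their values were seen. Promoter sequences are from RefSeq (GRCm38.p6). Alternatives were another filter, floor, variance model, array weights, scaling, summary per gene, replicate block and leaving out arrays. Listed genes without a probe set of their own were not analysed here.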

Additional observations from a re-analysis of the deposited data

How the results depend on the processing

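The number of member probe sets called higher in NCSC was 9 in the reported fit (6146 over all tested probe sets). It was 7 to 10 when 1 array was left out in turn (5248 to 6499 over all), and Ezh1 1418290_a_at joined without NCSC 3. With array weights it was 11 (7213 over all), and with other scalings 9 (5667 with centring, 5734 with quantile normalization). With the brightest probe set per gene 4 members were called higher. With the mean of each gene's kept probe sets 5 were, and in both each gene enters once. The count called lower was 1 in the reported fit (5065 over all tested probe sets) and 0 with no filter on low values (4178 over all). It was 3 with trend and robust variances (5154), 5 with array weights (6416) and 3 with arrays centred on their median (5605). Without both MSC 2 and NCSC 3 it was 5 (6089), and with 1 array left out 0 to 4 (4145 to 5430). The counts over all probe sets thus moved between settings too. Over all tested probe sets, 3672 and 3059 were called higher and lower with the brightest probe set per gene and 3706 and 3050 with the mean per gene, since fewer features were tested (6146 and 5065 in the reported fit). For the other changes the cause was not tested.

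Replicate numbers did not pair the samples: same-numbered samples correlated at −0.094 to 0.066 in their deviations, and 2 of 6 arrays correlated best with their own number. With the replicate number as a block, 9 member probe sets were called higher and 1 lower (5608 and 4728 over all). Bmi1 1448733_at was then no longer called (adjusted p = 0.0520 by limma) and Ezh1 1449023_a_at was (0.0280). Among the named partners the block also ended the calls of Rbbp7, Cbx8, Cbx2, Dpy30 and Asxl1 (0.0504 to 0.0967) and gave calls to Phf1, Uhrf1 and Aurkb (0.0240 to 0.0463).

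With no filter on low values, the calls of Rbbp7, Cbx8, Cbx2, Pcgf1, Dpy30, Hells and Cdkn2b were also lost (adjusted p of 0.0539 to 0.125 by limma). Cbx2 lost its call with trend and robust variances (0.0633), Hells with the mean of kept probe sets (0.0731), Rbbp7 with quantile normalization (0.0548) and Asxl1 with quantile normalization (0.0722) or centring (0.0833).

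Signs turned only for small differences that were not called. With array weights, Suz12 1427253_s_at stood at −0.091, Bap1 at −0.11, Paxip1 at −0.12, Pcna at −0.079, Cdkn2d at −0.18, Irx3 at −0.28 and Ccna2 at −0.32. With arrays centred on their median, Suz12 1427253_s_at stood at −0.015, Rnf2 at −0.026, Bap1 at −0.018, Paxip1 at −0.046 and Ogt at −0.0048. With quantile normalization, Rnf2 stood at −0.0041, Bap1 at −0.016 and Paxip1 at −0.046. With the mean of kept probe sets, Suz12 stood at −0.027, Rnf2 at −0.0065, Paxip1 at −0.065, Ogt at −0.14 and Ccna2 at −0.11. Without both MSC 2 and NCSC 3, Suz12 1420021_s_at stood at −0.016, Suz12 1427253_s_at at −0.13, Bap1 at −0.15, Paxip1 at −0.17, Pcna at −0.11, Cdkn2d at −0.21, Irx3 at −0.35 and Ccna2 at −0.41, the last with adjusted p = 0.00698 by limma, a call in the turned direction. With 1 array left out, the differences ranged from −0.054 to 0.10 for Suz12 1427253_s_at, −0.12 to 0.0070 for Suz12 1452364_at, −0.052 to 0.11 for Bap1, −0.081 to 0.11 for Paxip1, −0.065 to 0.23 for Pcna, −0.023 to 0.17 for Ogt, −0.31 to 0.043 for Cdkn2c, −0.29 to 0.30 for Cdkn2d, −0.12 to 0.35 for Irx3, −0.49 to 0.078 for Bub1 and −0.28 to 0.29 for Ccna2.

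Where MSC lay under the limit (Tet1, Cbx7), the arrays give a bound and no level.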

Other observations

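Of 35 listed developmental regulators that Polycomb is known to hold silent in embryonic stem cells, 33 had a probe set, 25 were under the limit on all 6 arrays and 6 were tested. Of all 18193 genes, 40.7% were under the limit on all arrays. By limma with Benjamini-Hochberg adjustment, 3 of these were called lower in NCSC, 2 higher and 1 neither way, against 28.7% and 34.3% of all tested genes. With a filter that asks for signal over log2 4 on every array, 1 was called lower and 2 higher, and the median turned from −1.50 to 0.76. Tbx15, a T-box gene of limb and skeletal mesenchyme, stood at 10.96 ± 0.19 in MSC and 4.23 ± 0.51 in NCSC (SD, n = 3 each; log2), a difference of −6.73 ± 0.27 (adjusted p = 6.85e-06 by limma). Irx5 differed by −4.81 ± 0.36 (adjusted p = 0.000107 by limma) and Gata6, a factor of endoderm and heart, by −3.15 ± 0.19 (adjusted p = 4.33e-05 by limma). Dlx2, a homeobox gene of the neural crest and forebrain, rose by 2.75 ± 0.39 (adjusted p = 0.00137 by limma) and Tbx3 by 1.37 ± 0.095 (adjusted p = 7.46e-05 by limma). Irx3 was not called (0.15 ± 0.31, adjusted p = 0.691 by limma).

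Of 18 germline genes known to be silenced by DNA methylation, 15 were under the limit on all arrays and 2 were tested, both called higher in NCSC (34.3% of all tested genes were, and 40.7% of all genes were under the limit). Rhox5, an X-linked homeobox gene, rose from 4.51 ± 0.42 to 7.46 ± 0.32, by 2.95 ± 0.26 (adjusted p = 0.000195 by limma). Brdt, a testis bromodomain gene, rose from 4.87 ± 0.55 to 7.16 ± 0.58, by 2.29 ± 0.38 (adjusted p = 0.00279 by limma).

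Of 7 cyclin-dependent kinase inhibitors, several of them at loci that Polycomb is known to repress, 6 were tested: 0 were called higher and 2 lower by limma, against 34.3% and 28.7% of all tested genes. Without MSC 2 the counts were 2 and 1, and without NCSC 3 they were 1 and 3. Over all probe sets they were 5733 and 5005 without MSC 2, and 6499 and 5430 without NCSC 3. Cdkn1a (p21) differed by −0.82 ± 0.096 (adjusted p = 0.000615 by limma). Cdkn2b differed by −0.73 ± 0.20 (adjusted p = 0.0200 by limma) and lost its call without MSC 1 (0.0569), MSC 2 (0.0589) or MSC 3 (0.0538). Cdkn2a, the locus known for its repression by Bmi1 and Cbx7, was not called (0.37 ± 0.17, adjusted p = 0.108 by limma), nor was Cdkn1b (0.38 ± 0.14, adjusted p = 0.0538 by limma). Without MSC 2 both were called higher, Cdkn2a by 0.55 (0.00887) and Cdkn1b by 0.49 (0.0240). Cdkn1b was also called without NCSC 3 (0.0455), with trend and robust variances (0.0349), with the brightest probe set per gene (0.0486) and with array weights (0.00482). Array weights gave Cdkn2a a call too (0.00796). The ranges over settings were 0.00407 to 0.280 for Cdkn2a and 0.00482 to 0.152 for Cdkn1b. Cdkn2c (−0.091 ± 0.19) and Cdkn2d (0.064 ± 0.31) had the smallest differences, and without NCSC 3 Cdkn2c was called lower (−0.31, 0.0226).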
